A study of Mus musculus with 6 samples.

Results

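The mouse genes described here code for DNA repair and damage checkpoint proteins: homologous recombination, the Fanconi anemia pathway, mismatch repair, damage sensing and checkpoint signaling, end joining, and flap removal with nick ligation. They were taken by symbol from a list of 38 genes, of which 37 were measured among 18193 genes with a probe set of their own, and Xrcc2 was not analysed here. Each gene was read from its brightest probe set, the one with the highest mean log2 signal over 6 arrays. The study compared bone marrow stromal cells recovered from the infarcted mouse brain (iLarge T BMSC, 3 arrays, replicates 2, 4 and 6) with the cultured parent cells (naïve Large T BMSC, 3 arrays, replicates 1, 3 and 5) to learn which genes the cells express differently after infiltrating the brain. The iLarge T BMSC had been injected intravenously into male C57BL/6 mice, 6 to 8 weeks old, at 24 hours of reperfusion after middle cerebral artery occlusion. They were taken from the infarcted hemisphere 14 days later and passaged in culture again. The naïve cells were never injected. Cells of both groups come from the Immortomouse, whose transgene codes for the SV40 large T antigen in a temperature-sensitive form, and both were grown at 33 °C, where the antigen is stable. This viral antigen binds p53 and the retinoblastoma family. RNA of 3 hemispheres or 3 sets of naïve cells was pooled for each array, so the spread between arrays is that of pools. The number of arrays, 3 per group, limits the precision of every value.

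Homologous recombination repairs breaks and stalled replication forks by copying the sister chromatid, and is used in cells that are replicating their DNA. The Fanconi anemia proteins open crosslinks between the strands, mismatch repair removes errors left by the polymerases, and end joining closes breaks without a template at any stage of the cell cycle. Damage is sensed by the kinases ATM and ATR, which signal through CHEK2 and CHEK1 to hold the cell cycle, and transcripts of many of these proteins are known to be more abundant in S phase than in resting cells.

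All 9 measured stromal markers lay above the limit of near background, the 40th percentile of each array (183 to 299.6), on all 6 arrays. Most probe sets of an array pass this limit, so this does not settle which cells the cultures held. By summed signal, iLarge T replicate 6 stood apart. The sum of 8 macrophage and microglia markers was 6209, 5690 and 53024 in iLarge T replicates 2, 4 and 6. It was 3367, 11585 and 10124 in naïve replicates 1, 3 and 5. The sum of 8 endothelial markers behaved alike, with 6593, 6589 and 46988 in iLarge T BMSC and 8454, 11082 and 11784 in naïve cells. Single genes made up most of these naïve sums: Cd68 on replicates 3 and 5, and Tek, given below, on all 3 arrays. Cd68 had 544, 9873 and 8396 in naïve replicates 1, 3 and 5, against 317, 1329 and 16962 in iLarge T replicates 2, 4 and 6. In each list the other 7 of 8 markers had a positive log2 fold change, iLarge T minus naïve. The list medians were 2.83 (macrophage and microglia) and 2.68 (endothelial). Of these lists, Itgam, Ptprc, Aif1, Tyrobp, Pecam1, Cdh5, Tie1 and Vwf did not pass the limit of near background on any of the 3 naïve arrays. Ptprc had 206, 196 and 4440 in iLarge T replicates 2, 4 and 6, and passed that limit only in replicate 6. The sum of 8 neuron and glia markers was 7211, 3084 and 10901 in iLarge T BMSC, against 2566, 2225 and 1608 in naïve cells. Some single markers were higher on all 3 iLarge T arrays than on any naïve array. Cdh5 had 2211, 2787 and 23797 in iLarge T BMSC, against 210, 32 and 27 in naïve cells (limma as below, adjusted p = 0.00760). Csf1r had 3716, 1892 and 5673, against 883, 330 and 339 (adjusted p = 0.0151). Tubb3 was also called higher (adjusted p = 0.0490). Tek went the other way, with 502, 458 and 1300 against 5703, 8480 and 9080 (adjusted p = 0.00243). Leaving out iLarge T replicate 6 gave 9 lower genes of 37 and a median log2 fold change of −1.48 over the 37. The part of other cells in the values was not tested.

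Many repair and checkpoint genes were lower in iLarge T BMSC. Of the 37 measured, 14 fell (limma, adjusted p under 0.05 over 45037 probe sets and at least 2-fold), 0 rose and 23 did not pass the test. This is 37.8%, where 3.26% of all 18193 genes were lower and 3.54% were higher, and 6.71% were lower among the 2937 genes as bright as the interquartile range of the members. The median log2 fold change was −1.61 (quartiles −2.29 and −1.03), against 0.06 over all genes (quartiles −0.55 and 0.78). The 3 iLarge T signals all lay under the 3 naïve signals for 29 of 37 genes (13.1% of all genes) and all above them for 0 (14.5% of all genes). A negative log2 fold change was seen in 35 of 37 genes, against 47.5% of all genes. In cultures measured in bulk, fewer cells that express a gene and less of its RNA per cell cannot be told apart. The methods' t-test called 0 of the 37 genes on log2 or linear values, with 25 and 24 at an unadjusted p under 0.05, all lower. Of all 45037 probe sets, the rerun called 13 lower and 15 higher on log2 values, and 67 lower and 33 higher on linear values. limma without its intensity trend also called 0 of the 37 genes (25 at an unadjusted p under 0.05), though it called 109 probe sets lower and 186 higher of 45037. With the trend, limma had 28 of the 37 genes lower and 0 higher at that unadjusted level.

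**Figure D1:**
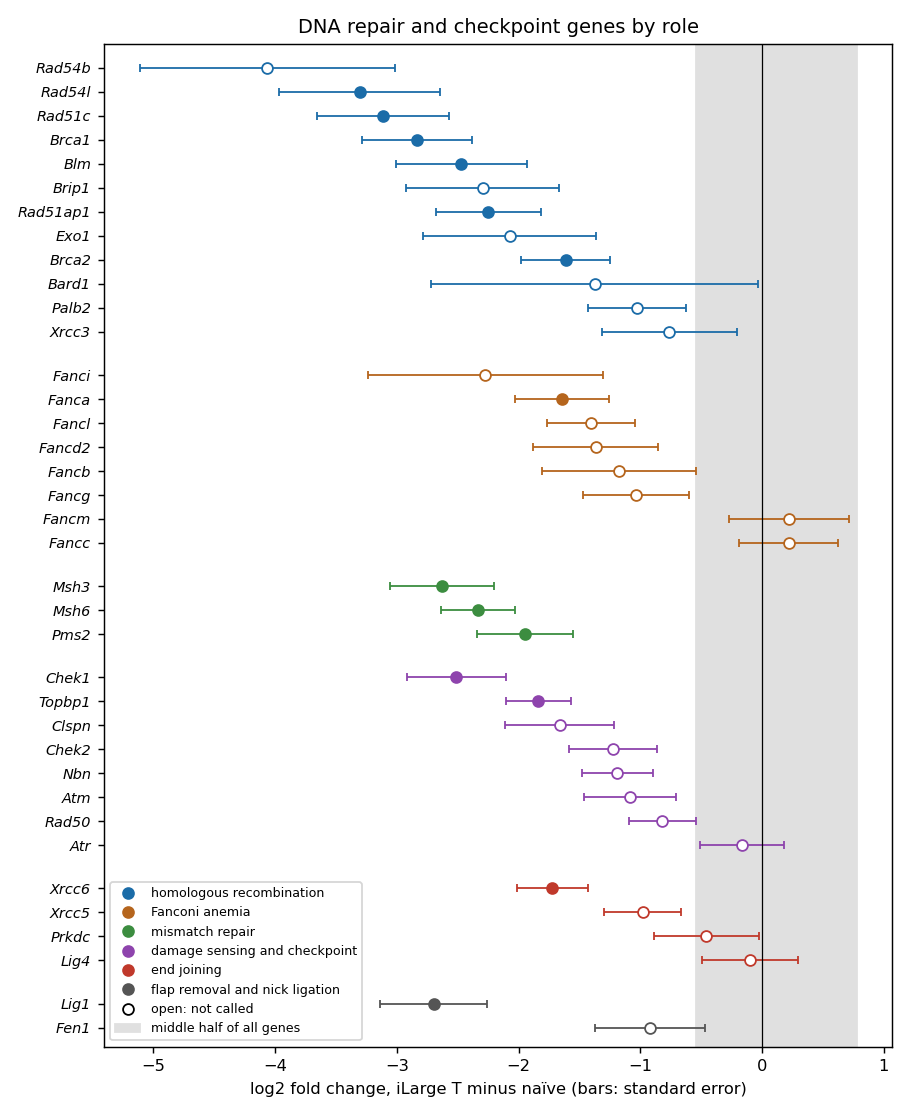
Log2 fold change of each of the 37 measured genes (iLarge T minus naïve, x axis) by role, with bars of 1 standard error; filled points passed limma's test and open points did not, and the gray band is the interquartile range of all genes. Of the genes plotted, 35 lie left of 0, and the 14 filled points run from −3.30 for Rad54l to −1.61 for Brca2.

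The promoters of the genes, 250 bases before to 50 after the start of transcription (RefSeq, GRCm38.p6), were searched on both strands for words bound by the E2F factors, which drive S phase transcription: TTTCCCGC, TTTCGCGC, TTTGCCGC and TTTGGCGC. A promoter was at hand for 31 of the 38 genes. At least 1 word was found in 12 of their 37 promoters (32.4%), against 744 of all 32851 mouse promoters (2.26%) and 581 of 18110 promoters of genes measured here (3.21%). Of the genes that fell, 7 of 14 held a word (Brca2, Lig1, Msh3, Msh6, Rad51c, Topbp1 and Xrcc6), and of those not called 4 of 17 did (Bard1, Chek2, Clspn and Fancg). The word TTTGAA, which marks many genes of mitosis, was in 2 of 37 promoters (5.41%). It was in 17.9% of all promoters and 13.4% of promoters of genes measured here. Of the promoters of the proliferation genes described below, 5 of 8 held it (62.5%). The 4 stretches of 250 bases ending just before the start that follow were chosen from genes that fell, after the matches were seen, and are shown so that the words can be read in place. They are given 5′ to 3′ on the strand of the gene, with the E2F words in capitals, at chr5:150522371-150522620 (plus strand) for Brca2, chr13:92355004-92355253 (minus strand) for Msh3, chr9:103305077-103305326 (plus strand) for Topbp1 and chr15:82016119-82016368 (plus strand) for Xrcc6.
Brca2: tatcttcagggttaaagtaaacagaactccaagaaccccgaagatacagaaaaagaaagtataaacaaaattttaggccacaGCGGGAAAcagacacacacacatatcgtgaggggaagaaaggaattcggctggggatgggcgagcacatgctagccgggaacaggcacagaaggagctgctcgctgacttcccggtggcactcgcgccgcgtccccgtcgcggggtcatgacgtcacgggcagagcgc
Msh3: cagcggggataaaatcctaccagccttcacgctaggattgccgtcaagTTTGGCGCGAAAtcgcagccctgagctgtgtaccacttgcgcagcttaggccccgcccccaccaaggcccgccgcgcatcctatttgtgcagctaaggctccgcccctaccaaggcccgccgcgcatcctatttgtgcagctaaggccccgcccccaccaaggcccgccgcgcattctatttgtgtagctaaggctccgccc
Topbp1: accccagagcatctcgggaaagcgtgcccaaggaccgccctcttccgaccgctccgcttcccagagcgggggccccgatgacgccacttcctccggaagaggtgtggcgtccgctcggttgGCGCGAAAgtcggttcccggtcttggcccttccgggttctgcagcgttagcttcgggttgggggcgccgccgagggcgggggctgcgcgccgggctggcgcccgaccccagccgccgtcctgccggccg
Xrcc6: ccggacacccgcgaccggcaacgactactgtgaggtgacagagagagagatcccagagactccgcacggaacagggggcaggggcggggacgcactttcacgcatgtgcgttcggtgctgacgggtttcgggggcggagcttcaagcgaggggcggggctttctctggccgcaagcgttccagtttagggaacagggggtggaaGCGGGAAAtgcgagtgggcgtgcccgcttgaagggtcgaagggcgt
The word starts 168 bases before the start of Brca2, 129 before that of Topbp1 and 46 before that of Xrcc6. Msh3 has a pair of words that overlap, at 202 and 198 bases before its start, read on opposite strands. A match is a description of the letters only, and binding was not measured.

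Among homologous recombination genes, 6 of 12 fell and the median log2 fold change was −2.27. Brca1, which codes for a ubiquitin ligase that directs breaks to recombination, had signals of 288, 925 and 511 in iLarge T BMSC, against 3877, 3480.1 and 3652 in naïve cells. Every naïve signal was far above every iLarge T signal, and the naïve arrays lay close together. Its mean was 575 ± 323 in iLarge T BMSC and 3669.7 ± 199 in naïve cells (SD, n = 3 each), a log2 fold change of −2.83 (SE 0.45, adjusted p = 0.00764). The signal of iLarge T replicate 2 was near background, and with it raised to the 40th percentile the log2 fold change was −2.81. Brca2, whose product acts at single-stranded DNA in recombination, had 1158, 822 and 704 in iLarge T BMSC, against 3249, 2084 and 2835 in naïve cells, with no overlap (log2 fold change −1.61, SE 0.36, adjusted p = 0.0347). Its promoter is the first shown above.

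Other recombination genes also fell. Rad51c gave 443, 164 and 199.5 in iLarge T BMSC, against 1404, 2388 and 2796 in naïve cells (log2 fold change −3.11, SE 0.54, adjusted p = 0.0114). Rad54l, whose product is a DNA translocase that drives strand exchange, gave 573, 103 and 270 in iLarge T BMSC, against 4189, 1697 and 2162 in naïve cells (log2 fold change −3.30, SE 0.66, adjusted p = 0.0207). The groups were apart for both genes, though each had 1 iLarge T array under the 40th percentile, and with such signals raised to that limit the log2 fold changes were −2.86 and −2.83. Rad51ap1, which codes for a protein that stimulates strand pairing, had 471, 1179 and 479 in iLarge T BMSC, against 2731, 3190.5 and 3278 in naïve cells (log2 fold change −2.25, SE 0.43, adjusted p = 0.0172). Replicate 4 was the highest iLarge T array for Rad51ap1, as it was for Brca1. Blm, the gene of the helicase that dissolves recombination intermediates, had 174, 608 and 570.4 in iLarge T BMSC, against 2300.5, 2217 and 2015 in naïve cells (log2 fold change −2.47, SE 0.54, adjusted p = 0.0296). Its iLarge T replicate 2 was under the 40th percentile, and with that signal raised to the limit the log2 fold change was −2.21.

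The other 6 recombination genes did not pass the test, and their log2 fold changes ran from −4.06 to −0.76. Rad54b, a relative of Rad54l, had 32.5, 12.6 and 142 in iLarge T BMSC, against 847, 617 and 520.4 in naïve cells. Every iLarge T array was near background, so its level there is only bounded: with those signals set at the limit it was at least 2.63-fold lower (fitted log2 fold change −4.06, SE 1.05, adjusted p = 0.0598). Brip1, the gene of a helicase that binds BRCA1, had 116, 195 and 295 in iLarge T BMSC and 1354, 661 and 879 in naïve cells (log2 fold change −2.29, adjusted p = 0.0741). Exo1 codes for a nuclease that resects breaks and also serves mismatch repair. It had 331, 443 and 110.4 in iLarge T BMSC, against 2144, 879 and 641 in naïve cells (log2 fold change −2.07, adjusted p = 0.150). Neither gene's groups overlapped, and naïve replicate 1 was the highest array for both. Of the iLarge T arrays, 2 for Brip1 and 1 for Exo1 were under the 40th percentile. With such signals raised to that limit the log2 fold changes were −1.67 and −1.83. Palb2, which links BRCA1 to BRCA2, had 714, 543 and 550.3 in iLarge T BMSC and 1236, 1127 and 1293 in naïve cells (log2 fold change −1.03, adjusted p = 0.216). Xrcc3, which also serves recombination, had 464, 456 and 248 in iLarge T BMSC and 494, 653 and 791 in naïve cells (log2 fold change −0.76, adjusted p = 0.557). The probe set of Bard1, the partner of BRCA1, had 34.6, 15.2 and 39.8 in iLarge T BMSC and 172, 185 and 11.4 in naïve cells, near background on all 6 arrays, so no direction is given for it.

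**Figure D2:**
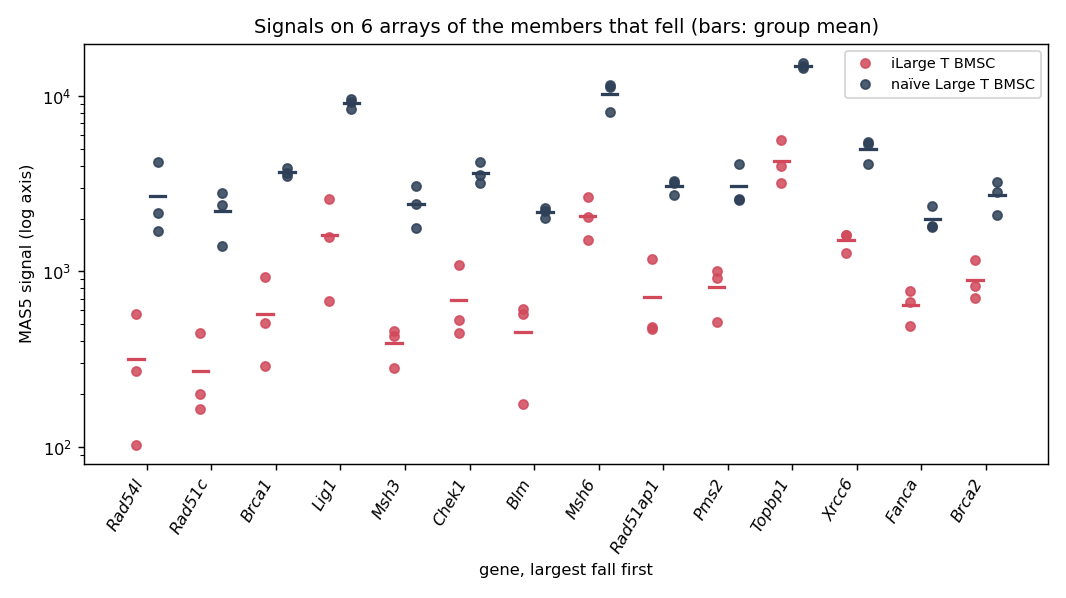
MAS5 signal (log y axis) on each array for the 14 genes that fell, ordered by the size of the log2 fold change, with iLarge T BMSC left of naïve cells and a bar at each group mean (n = 3 each). For every gene the 3 iLarge T points lie under the 3 naïve points, and the iLarge T means run from 269 for Rad51c to 4265 for Topbp1.

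In the Fanconi anemia pathway 1 of 8 genes fell, with a median log2 fold change of −1.27. Fanca, of the core complex that attaches ubiquitin to FANCD2 and FANCI, had 489, 774 and 666 in iLarge T BMSC, against 1792, 1809 and 2367 in naïve cells (log2 fold change −1.64, SE 0.38, adjusted p = 0.0404). Fancl, the ubiquitin ligase of the complex, had 1490.4, 1107 and 1099.8 in iLarge T BMSC, against 4949.8, 2667 and 2567 in naïve cells, and did not pass the test (log2 fold change −1.41, SE 0.36, adjusted p = 0.0588). Both genes were lower on every iLarge T array, and Fancl passed when probe sets near background in both groups were left out (adjusted p = 0.0437). Fanci had 40, 586 and 559.9 in iLarge T BMSC and 1447, 1245 and 823 in naïve cells, where iLarge T replicate 2 alone was near background (log2 fold change −2.27, SE 0.97, adjusted p = 0.257). Its partner Fancd2 had 517, 410.5 and 270.1 in iLarge T BMSC and 1393, 809.9 and 872 in naïve cells (log2 fold change −1.37, adjusted p = 0.190). The core complex genes Fancb and Fancg had log2 fold changes of −1.17 and −1.04 (adjusted p = 0.388 and 0.248), and the groups overlapped for Fancb. Fancc and Fancm were the only 2 of the 37 genes with a positive log2 fold change, 0.22 for each (adjusted p = 0.853 and 0.882), and with the mean of all their probe sets both were negative, −0.40 and −0.59. Fancc, also of the core complex, had 799, 884 and 1023 in iLarge T BMSC and 719, 838 and 757 in naïve cells, where the groups overlapped. Fancm, a translocase that brings the complex to stalled forks, had 539, 777 and 528 in iLarge T BMSC and 542, 499 and 517 in naïve cells.

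All 3 mismatch repair genes listed fell, with a median log2 fold change of −2.33. Msh6, whose product helps recognise single mispaired bases, had 1515, 2655 and 2049 in iLarge T BMSC, against 8103, 11211 and 11581 in naïve cells. The groups were far apart on every array, and the means were 2073 ± 571 in iLarge T BMSC and 10298 ± 1909.9 in naïve cells (SD, n = 3 each; log2 fold change −2.33, SE 0.30, adjusted p = 0.00289). This was the lowest adjusted p of the 37 genes. Msh3, whose product helps recognise larger loops, gave 282, 427 and 455 in iLarge T BMSC, against 1767, 3065 and 2408 in naïve cells (log2 fold change −2.63, SE 0.43, adjusted p = 0.00827). Here too iLarge T replicate 2 was near background, and with its signal raised to the 40th percentile the log2 fold change was −2.60. Pms2, which codes for an endonuclease of the pathway, had 1006, 919 and 512 in iLarge T BMSC, against 4105, 2591 and 2559.9 in naïve cells (log2 fold change −1.95, SE 0.40, adjusted p = 0.0227). The promoter with the overlapping words above is that of Msh3.

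Of the damage sensing and checkpoint genes 2 of 8 fell, both on the ATR branch, and the median log2 fold change was −1.21. Chek1, the kinase downstream of ATR, had 446, 1087 and 532 in iLarge T BMSC, against 3197, 4207 and 3543 in naïve cells (log2 fold change −2.51, SE 0.41, adjusted p = 0.00843). Topbp1, the activator of ATR, was the brightest of all 37 genes, with 3175, 5608 and 4013 in iLarge T BMSC, against 14749, 14378 and 15395 in naïve cells. The naïve arrays differed little among themselves, and the means were 4265 ± 1236 in iLarge T BMSC and 14841 ± 515 in naïve cells (SD, n = 3 each; log2 fold change −1.84, SE 0.27, adjusted p = 0.00518). Atr itself had 2429, 2978 and 2154 in iLarge T BMSC and 1833, 3192 and 3739.8 in naïve cells, with overlap (log2 fold change −0.16, SE 0.35, adjusted p = 0.876). Clspn, the adaptor that brings CHEK1 to ATR, had 671, 1207 and 640.2 in iLarge T BMSC and 4235, 1723 and 2256 in naïve cells (log2 fold change −1.66, SE 0.45, adjusted p = 0.0687). On the ATM branch no gene passed the test as used, though Nbn came close (adjusted p = 0.0513) and passed under 5 alternatives, such as signals raised to the 40th percentile (0.0415), and Chek2 passed with a block for the spike-in pairs (0.0384). Chek2, the kinase that ATM activates, and Nbn and Rad50, of the complex that brings ATM to breaks, had log2 fold changes of −1.22, −1.19 and −0.82 (adjusted p = 0.0924, 0.0513 and 0.140), with no overlap between the groups for any of them. Atm had 1997, 1917 and 1144 in iLarge T BMSC and 5218, 3040.2 and 2633 in naïve cells (log2 fold change −1.08, SE 0.37, adjusted p = 0.153). Whether the branches differed was not tested.

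End joining had the median log2 fold change nearest to 0 of the 6 roles, −0.72, with 1 of 4 genes lower. Xrcc6, which codes for the KU70 subunit that caps broken ends, had 1614, 1277 and 1611 in iLarge T BMSC, against 4083, 5486 and 5319 in naïve cells (log2 fold change −1.72, SE 0.29, adjusted p = 0.00958). Its partner Xrcc5, the KU80 subunit, had 1992, 1898 and 1462 in iLarge T BMSC and 2614, 3938 and 4124 in naïve cells, apart but short of the test (log2 fold change −0.98, SE 0.32, adjusted p = 0.125). Prkdc, the kinase that KU recruits, had 719, 1103 and 1147 in iLarge T BMSC and 853, 1541 and 1798 in naïve cells, and these overlapped (log2 fold change −0.46, adjusted p = 0.668). Lig4, the ligase of the pathway, had 1348, 2202 and 1139.8 in iLarge T BMSC and 2223, 1365 and 1365 in naïve cells, also with overlap (log2 fold change −0.10, adjusted p = 0.940).

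Lig1 and Fen1 finish both repair patches and the fragments of the lagging strand. Lig1, the nick ligase, had 679, 2582 and 1579 in iLarge T BMSC, against 8429, 9295 and 9590.1 in naïve cells. Its iLarge T arrays spread more than the naïve ones, with means of 1613 ± 952 in iLarge T BMSC and 9105 ± 604 in naïve cells (SD, n = 3 each; log2 fold change −2.69, SE 0.44, adjusted p = 0.00837). For Fen1, the flap endonuclease, the answer hung on the probe set. The brightest had 6603, 7031 and 2649.8 in iLarge T BMSC and 16505, 7767 and 6547 in naïve cells, where the groups overlapped (log2 fold change −0.92, SE 0.45, adjusted p = 0.333). The other, dimmer one had 2036, 2088 and 2083 in iLarge T BMSC, against 12381, 8612 and 9158 in naïve cells, and fell (log2 fold change −2.26, SE 0.26, adjusted p = 0.00166).

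The 37 genes had 79 probe sets in all, of which 21 were lower, 0 were higher and 9 were near background on all 6 arrays. Of all 45037 probe sets tested, 1024 were lower and 1113 were higher. Beyond the brightest of each gene there were 42 probe sets of 24 genes, and 7 of these were lower. Brca1 was lower by 3 of its 4 probe sets. A second Brca1 probe set had 41.5, 40.4 and 134 in iLarge T BMSC, against 1301, 1157 and 1579.9 in naïve cells, near background on every iLarge T array and at least 5.41-fold lower (fitted log2 fold change −4.46, SE 0.75, adjusted p = 0.00955). Rad51ap1 was lower by 3 of 4 probe sets, Rad51c by 2 of 2 and Chek1 by 2 of 5. The next brightest probe set of Chek1 had 563, 543 and 344 in iLarge T BMSC, against 2335, 2884 and 2524 in naïve cells (log2 fold change −2.45, SE 0.39, adjusted p = 0.00756). Only the brightest was lower for Msh3 (1 of 4), Pms2 (1 of 3), Rad54l (1 of 4), Fanca (1 of 2), Topbp1 (1 of 2) and Xrcc6 (1 of 2). The dimmer Xrcc6 and Topbp1 probe sets were near background on all 6 arrays, while the next probe set of Msh3 was dimmer but measured, with a log2 fold change of −1.15 (adjusted p = 0.308). Probe sets also differed in sign or call for Fancc, Fancl, Fancm, Rad50 and Atr.

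**Figure D3:**
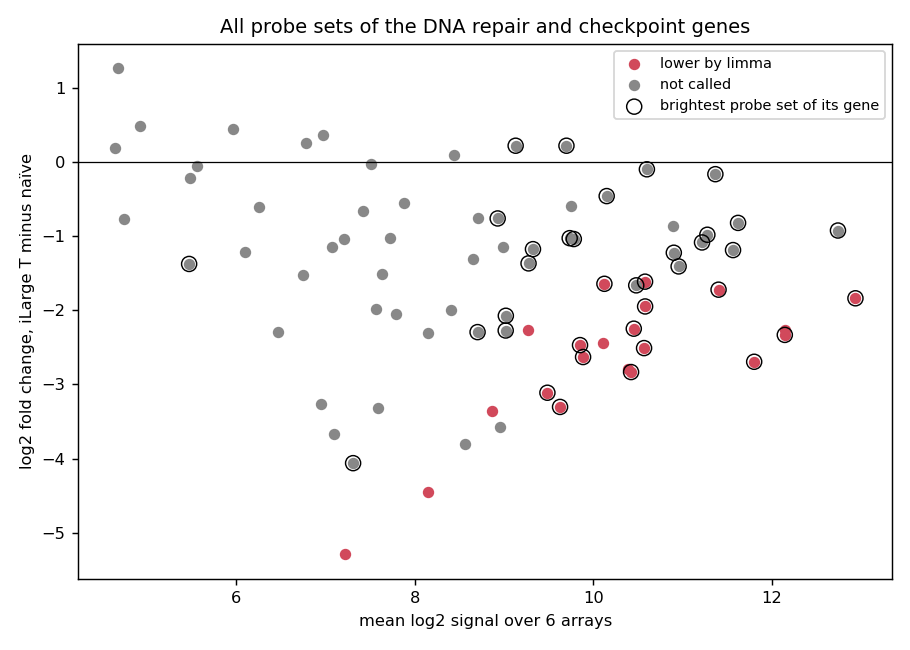
All 79 probe sets of the 37 genes by mean log2 signal over the 6 arrays (x axis) and log2 fold change, iLarge T minus naïve (y axis); red points were lower by limma, gray points were not called, and rings mark the brightest probe set of each gene. The 21 red points include 7 without a ring, and the gray points above 0 without a ring lie mostly at low signal.

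The lower signals were seen on every iLarge T array. Against the naïve mean of each gene, the median of the 37 genes was −1.58, −1.28 and −1.65 on the log2 scale in iLarge T replicates 2, 4 and 6, and 0.06, −0.05 and −0.01 in naïve replicates 1, 3 and 5. The arrays were also set in 3 pairs, called the spike-in pairs here: replicates 1 and 2, 3 and 4, and 5 and 6. The labels name no pairs. The BioC spike-in signal was 1620 and 2050 on replicates 3 and 4, and 8767 to 11079 on the others. It therefore sets apart only the pair of 3 and 4. The median log2 difference within the pairs was −1.73, −1.23 and −1.68, with 35, 33 and 34 of 37 genes lower in iLarge T BMSC. All 14 called genes were lower in each pair, which any pairing would give, since their groups did not overlap.

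The number of calls varied when arrays were left out. It was 12, 9 and 9 without iLarge T replicates 2, 4 and 6, and 16, 4 and 6 without naïve replicates 1, 3 and 5, while the median log2 fold change stayed between −1.64 and −1.36. The lower calls over all 45037 probe sets varied too, from 1024 with every array kept. They were 595, 583 and 580 without iLarge T replicates 2, 4 and 6, and 2140, 367 and 450 without naïve replicates 1, 3 and 5. Brca1, Lig1, Msh6 and Topbp1 passed in all 6 of these fits. Without naïve replicate 3, the adjusted p was 0.0672 for Msh3, 0.0542 for Chek1, 0.0726 for Rad51c and 0.0642 for Xrcc6, and the last 2 genes also missed without naïve replicate 5 (0.0746 for Rad51c and 0.0538 for Xrcc6). Brca2, Rad54l, Blm and Pms2 missed without iLarge T replicate 4 or 6 or naïve replicate 3 or 5, where their adjusted p ran from 0.0531 for Blm to 0.148 for Brca2. Rad51ap1 missed without iLarge T replicate 2 or 6 or naïve replicate 3 or 5 (adjusted p of 0.0641 to 0.0860), and Fanca missed in every fit but that without naïve replicate 1 (0.0888 to 0.199). Chek2 and Xrcc5 passed without naïve replicate 1 (adjusted p = 0.0395 and 0.0258), and Rad54b without iLarge T replicate 6 (0.0436).

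Other repair lists were measured for comparison. Base excision repair, which replaces damaged single bases, had 3 of 14 genes lower and 0 higher (median log2 fold change −0.70). Ung, which removes uracil from DNA, had 252, 923 and 252 in iLarge T BMSC, against 3163, 8488 and 7849.7 in naïve cells (log2 fold change −3.94, SE 0.59, adjusted p = 0.00556). Parp2, a sensor of strand breaks, and Neil3, a glycosylase, also fell (log2 fold changes −1.61 and −2.26, adjusted p = 0.00731 and 0.0333), though Neil3 missed in every fit that left out 1 array other than naïve replicate 1 (adjusted p of 0.0686 to 0.180). Of other checkpoint and damage signaling genes 5 of 17 fell and 0 rose (median −0.60): Timeless, Rpa2, Mdc1, Tipin and Rnf168. Timeless, of the complex that protects replication forks, had 284, 1110.3 and 615 in iLarge T BMSC, against 3513, 6426 and 7131 in naïve cells (log2 fold change −3.23, SE 0.51, adjusted p = 0.00759). Rpa2, of the complex that coats single-stranded DNA, and Mdc1, the scaffold at breaks, had log2 fold changes of −2.19 and −2.08 (adjusted p = 0.00243 and 0.0156). Mdc1 missed without iLarge T replicate 4 or 6 or naïve replicate 3 or 5 (adjusted p of 0.0592 to 0.0917). Rnf168, a ubiquitin ligase at breaks, was near the threshold (log2 fold change −1.08, adjusted p = 0.0491) and missed in every such fit but that without naïve replicate 1 (0.0969 to 0.215).

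In nucleotide excision repair, which removes bulky lesions, limma called 0 of 14 genes (3 at an unadjusted p under 0.05), and the median log2 fold change was 0.005. Translesion synthesis had 0 of 9 genes called (5 at an unadjusted p under 0.05) and a median of −0.79. Without naïve replicate 1, limma called 1 nucleotide excision gene higher. In translesion synthesis it called 1 gene lower and 1 higher in that fit, with signals raised to the 40th percentile and with the spike-in block. The higher one was Polk (adjusted p = 0.00192, 0.0169 and 0.0177) and the lower one Mad2l2 (0.00167, 0.0201 and 0.0186). The E2F words were in 0 of 11 promoters of nucleotide excision genes, 0 of 11 of translesion genes, 1 of 15 of base excision genes (6.67%), 2 of 14 of other checkpoint genes (14.3%) and 1 of 8 of the proliferation genes described next (12.5%). Whether these lists differ from the 37 genes was not tested.

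Proliferation genes were lower in the same cells. Of 9 measured, 9 fell, with a median log2 fold change of −2.56, and their summed signal was 18500.8, 34254 and 18407 in iLarge T replicates 2, 4 and 6, against 204941, 94823 and 98692 in naïve replicates 1, 3 and 5. Mki67, the proliferation antigen, and Top2a, the mitotic topoisomerase, had log2 fold changes of −2.99 and −2.97 (adjusted p = 0.00527 and 0.00484), and Aurkb, a mitotic kinase, −2.98 (adjusted p = 0.00405). The iLarge T array highest for this sum was replicate 4. Against the naïve mean, its member median was −1.28, with −1.58 and −1.65 in replicates 2 and 6. The naïve array highest for the sum was replicate 1. Its member median was 0.06, with −0.05 and −0.01 in replicates 3 and 5. For the called members alone, the medians were −0.12, 0.03 and 0.07 in naïve replicates 1, 3 and 5. Leaving out 1 array gave 4 to 9 lower proliferation genes. The part of the number of dividing cells in the levels of the repair genes was not tested.

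**Figure D4:**
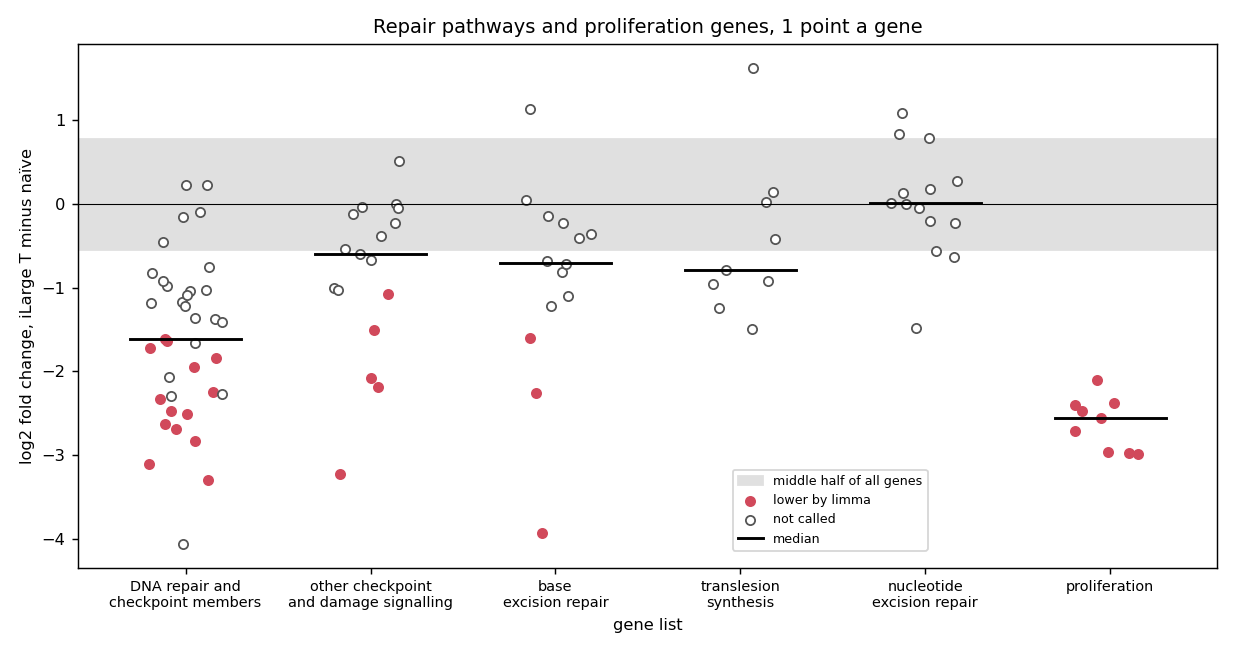
Log2 fold change, iLarge T minus naïve (y axis), of each gene in 6 lists (x axis), with red points lower by limma, open points not called, a bar at the list median and a gray band for the interquartile range of all genes. The medians are −1.61 for the DNA repair and checkpoint genes, −0.60, −0.70 and −0.79 for the next 3 lists, 0.005 for nucleotide excision repair and −2.56 for proliferation.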

How the data were processed

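The values were deposited by the authors as linear signal intensity of Affymetrix Mouse Genome 430 2.0 probe sets, made with MAS5 in GeneChip Operating Software and scaled so that each array has the same trimmed mean. MAS5 subtracts mismatch probes, which makes low signals noisy. Since detection calls were not used here, signals below the 40th percentile of their array were taken as near background. Of 45101 probe sets, 64 controls were left out, and log2 of the other 45037 was fitted with limma 3.58.1 in R 4.3.3 (lmFit, eBayes with an intensity trend; Benjamini-Hochberg), after a test on simulated data. A call needed an adjusted p under 0.05 and a 2-fold change. Genes were named from 34945 probe sets with 1 symbol, and 932 with several and 9160 with none stayed unnamed. Samples were grouped by their labels, and p-values measure only the spread between these pools.

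The text names every called gene, genes whose probe sets disagree or are near background, the gene with the largest change in a role without a call, and up to 3 called genes of each other list; the remaining members are given as well. Members and lists were chosen with earlier results of these data known. Alternatives were the methods' t-test (log2, linear), limma without the trend, quantile normalization, a filter, a floor, log2 of the signal plus 16, other probe set rules, no fold threshold and leaving out each array. The spike-in pairs as a block were added after the control probe sets were seen. Python 3.11.15 with pandas 2.3.3, numpy 2.4.6 and matplotlib 3.10.9 served for tables and plots.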

Additional observations from a re-analysis of the deposited data

How the results depend on the processing

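Of the 37 genes, 14 were lower, 13 after quantile normalization, 18 of 36 with dim probe sets left out, 17 with signals raised to the 40th percentile, 16 with 16 added to the signal, 12 with the mean of a gene's probe sets (8 of them among the 14), 14 with no fold threshold and 17 with a block for the spike-in pairs. It was 7 with the most variable probe set (6 among the 14), 0 with the methods' t-test on log2 or linear values (lowest adjusted p 0.0728 and 0.0530) and 0 for limma without the trend (0.0637). Leaving out 1 array gave 4 to 16 lower genes. With all arrays kept, Brip1, Chek2, Clspn, Fancl, Fen1, Nbn and Rad54b passed as lower under at least 1 of these settings and not in the fit used. No gene was higher in any of these. The median log2 fold change, −1.61, was −1.39 with the floor, −1.22 with the mean of probe sets and −1.38 with the most variable one, and −1.64 to −1.36 with 1 array left out. Directions turned for Bard1 with the floor (0.17), for Fancc (−0.40) and Fancm (−0.59) with the mean of probe sets, for Fancl (0.48), Fancm (−1.98), Rad50 (0.36) and Xrcc6 (0.44) with the most variable probe set, which for Fancl and Xrcc6 was near background on all 6 arrays, and for Atr without naïve replicate 5 (0.046, with a range of −0.47 to 0.046 when 1 array was left out) and Lig4 without naïve replicate 1 or iLarge T replicate 6 (range −0.37 to 0.14). Other causes were not tested. No paired analysis by replicate number was possible, because the groups share none. The block above joins arrays with neighboring replicate numbers, and the BioC spike-in set apart only replicates 3 and 4. Signals near background limit Bard1 on all arrays and Rad54b in iLarge T BMSC, and 8 other genes were near background on 1 or 2 iLarge T arrays.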
